A study of Homo sapiens with 15 samples.

Results

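The transcripts described here are those of 35 human genes of the endoplasmic reticulum (ER) folding machinery: chaperones, disulfide isomerases, ER-associated degradation factors, sensors of the unfolded protein response, and components of protein translocation and export. The genes were listed by symbol for their roles, and all 35 were found among the 41412 rows of the count matrix. The cells were HepG2, an established line from a human liver tumour, labelled as wild type. The 5 groups had 3 biological replicates each, and transfected cells were harvested after 48 h. Untransfected cells received no particle and no mRNA. Cells of the other 4 groups received 1 µg of mRNA for eGFP, a green fluorescent reporter protein, in a lipid nanoparticle reagent (NanoLNP). One of these groups received the mRNA non-cloaked, and 3 received it cloaked by exposure to CR-3, an agent that the labels name only by this code. Weak cloaking used 0.1 M for 0.5 h at 25 °C, medium cloaking 0.5 M for 1 h at 30 °C, and strong cloaking 1 M for 2 h at 37 °C. No group received particles without mRNA, so particle, mRNA and reporter translation cannot be told apart in any comparison with untransfected cells. These are bulk samples, in which a change in every cell and a change in some cells cannot be told apart.

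Secreted and membrane proteins enter the ER through the Sec61 channel, fold there with the help of Hsp70 and Hsp90 chaperones, disulfide isomerases and lectins, and are passed back to the cytosol for destruction when folding fails. Unfolded protein in the ER lumen is sensed by the transmembrane proteins IRE1 (gene ERN1), PERK (EIF2AK3) and ATF6. IRE1 splices XBP1 mRNA, PERK slows translation, and cleaved ATF6 enters the nucleus, so that transcription of chaperone and degradation genes rises. Hepatocytes secrete most plasma proteins and keep this machinery at a high level.

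Libraries held 57128519 to 78548789 counts. Hepatocyte-lineage markers were abundant in every library, with ALB at 4490 to 6920 CPM (read counts scaled to library size), although TTR reached only 6.88. The pan-leukocyte marker PTPRC had a median of 0 CPM and a maximum of 0.109, while LYZ, counted here as a leukocyte marker, ran from 871 to 1530 in all libraries. The summed hepatocyte markers ranged from 14600 to 17800 CPM in untransfected libraries, and in the transfected groups from 15600 (non-cloaked) to 20100 (strong-cloaked). The summed leukocyte markers ranged from 1120 to 1540 CPM in untransfected and from 879 to 1250 in transfected libraries. The strong-cloaked libraries lay above all untransfected ones in the first sum (18300 to 20100), and the non-cloaked (1030 to 1090) and strong-cloaked (988 to 1090) libraries lay below them in the second. The part of these sums in the results was not tested. Weak-cloaked replicate 1 stood apart from the other transfected libraries. On the first principal component of all tested genes (21.1% of the variance) it lay at -51.6, the untransfected libraries lay between -70.5 and -68.6, and the other 11 transfected libraries lay between -7.81 and 44.1. No row for the reporter was analysed here, so whether this library took up mRNA like its replicates was not tested, and values of the weak-cloaked group carry that doubt. The results that rest on it most, those of the weak-cloaked group and the counts of called genes, are given with and without it.

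In untransfected cells the levels of the 35 genes spanned a wide range, within the folding genes as well. Set per kilobase of exon, CALR stood at 929.8 CPM per kilobase, P4HB at 418 and HSPA5 at 303.9. The scarcest folding genes were DNAJC3 at 0.542, DNAJC10 at 2.82 and DNAJB9 at 4.84. Of the sensors and factors, XBP1 stood at 71.33, ATF6B at 20.42, ATF6 at 6.98, EIF2AK3 at 3.57 and ERN1 at 0.948 on the same scale. DERL3, at 0.0816, was the lowest of the 35 and had 4 to 46 counts per library. Together the 35 genes took 1.478% to 1.531% of all counts in untransfected libraries. The share was 1.602% in weak-cloaked replicate 1 and 1.639% to 1.867% in the other 11 transfected libraries, so every transfected library lay above all 3 untransfected ones.

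The first comparison asked what delivery of the mRNA particles did to these genes, whatever the grade of cloaking, and took the average over non-cloaked, weak, medium and strong groups, equally weighted, relative to untransfected cells. Of 10 chaperones 6 rose, as did all 4 disulfide isomerases: in all, 17 of the 35 genes were called at an adjusted p below 0.05, 16 of them higher and XBP1 lower (edgeR's quasi-likelihood test, Benjamini-Hochberg adjustment over 18380 genes). Among all genes tested 23.1% were called, 10.4% higher and 12.7% lower, against 45.7% of the 35 genes called higher. The median log2 fold change was 0.26 over the 35 genes and -0.05 over all tested genes. The changes were small in size, from -0.75 to 0.94 on the log2 scale, with a median 95% interval reaching 0.29 to either side. In the other roles, 1 of 2 lectin chaperones, 3 of 10 degradation factors, 1 of 5 sensors and factors and 1 of 4 translocation and export genes were called higher. Scaling the libraries by total counts moved the median of all tested genes to -0.28 and called 10 of the 35 (28.6%) against 28.9% of all genes, 7 of them higher against 5.14% and 3 lower (XBP1, SYVN1 and EIF2AK3) against 23.7%, so the excess of calls was then in the higher direction alone. Length and GC offsets gave 20 higher and 0 lower against 24.2% called (13.4% higher), and the share of all called genes that were higher was 44.9% as reported, 17.8% with total-count scaling and 55.3% with the offsets. Leaving out untransfected replicate 1, 2 or 3 left 7, 8 or 9 genes called, against 13.1%, 11.4% or 14.8% of all genes, and leaving out weak-cloaked replicate 1 gave 21 against 31.5%.

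**Figure D1:**
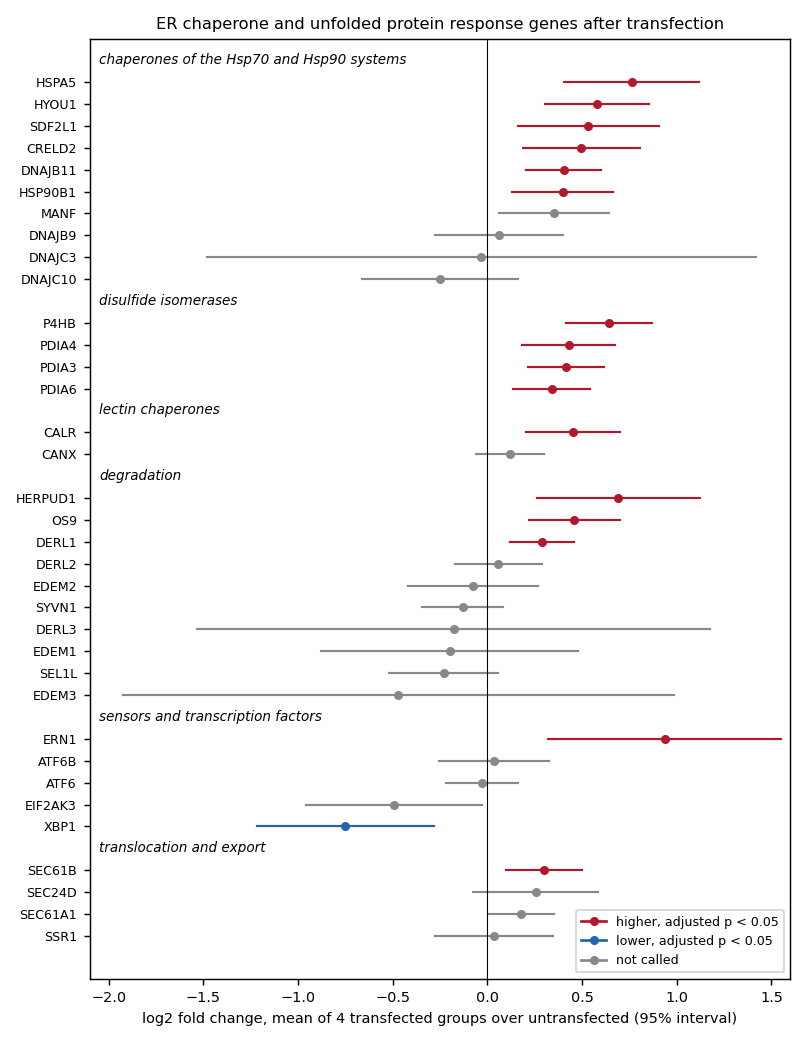
Log2 fold change (horizontal axis) of each of the 35 genes (vertical axis, grouped by role) in the mean of the 4 transfected groups over untransfected cells, with 95% intervals from edgeR; red marks genes called higher, blue lower, grey not called. All 4 disulfide isomerases lie to the right of 0, and XBP1, at -0.75, is the single gene called lower.

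Among the chaperones, HSPA5 (BiP, ENSG00000044574, chr9:125234853-125241330 in GRCh38), the Hsp70 of the ER lumen and a common readout of ER stress, rose most. Its level in the untransfected libraries was 1240, 1197 and 1126 CPM, in replicate order. In the non-cloaked libraries it was 1559, 1704 and 1701, in the weak-cloaked 1346, 2447 and 2382, in the medium-cloaked 2084, 2481 and 2417, and in the strong-cloaked 1679, 1921 and 2612. All 12 transfected libraries lay above all 3 untransfected ones, and weak-cloaked replicate 1 was the lowest of the 12. The fold change was 1.70 (log2 0.76 ± 0.17 SE, adjusted p = 0.0072, edgeR).

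HYOU1 (ENSG00000149428, chr11:119044189-119057202), a large Hsp70-like protein that exchanges nucleotide on BiP, was at 416.6, 357 and 378.5 CPM in untransfected libraries. It was at 514.1, 542 and 624.1 CPM with non-cloaked mRNA, 429.8, 533.7 and 703.3 with weak, 599.9, 530.1 and 604.9 with medium, and 608.3, 536.9 and 660.7 with strong cloaking. The untransfected and transfected libraries again did not overlap, and the log2 fold change was 0.58 ± 0.13 (SE, adjusted p = 0.00738, edgeR). DNAJB11 (ENSG00000090520, chr3:186567403-186585800), a J-domain partner that delivers substrates to BiP, was at 130.2, 118.7 and 125.2 CPM in untransfected libraries. With non-cloaked mRNA it was at 159.8, 154.4 and 174.6 CPM, with weak cloaking at 132.2, 173.7 and 181.5, with medium at 178.5, 183.9 and 187.5, and with strong at 145.1, 155.7 and 155.9. On this TMM-scaled measure every transfected library was again above every untransfected one, but not as a share of total counts. The log2 fold change was 0.40 ± 0.092 (SE, adjusted p = 0.00867, edgeR).

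The other 3 chaperones called higher changed by a like amount. HSP90B1 (GRP94), the Hsp90 of the ER, had a log2 fold change of 0.40 ± 0.12 (SE, adjusted p = 0.0342, edgeR), and its groups overlapped: untransfected libraries reached 1124 CPM and non-cloaked replicate 3 was at 844.1. SDF2L1, a small partner of DNAJB11 and BiP, had 0.53 ± 0.17 (SE, adjusted p = 0.0395), and CRELD2, a secreted ER stress protein with isomerase activity, had 0.50 ± 0.14 (SE, adjusted p = 0.0252). In weak-cloaked replicate 1 SDF2L1 was at 19.2 CPM and CRELD2 at 32.02, both within the untransfected range, while the other 11 transfected libraries lay above it. MANF, an ER-resident secreted factor, was not called (log2 0.35 ± 0.13 SE, adjusted p = 0.0754), although it was called when weak-cloaked replicate 1 was left out (adjusted p = 0.017). DNAJB9 (ERdj4), a J-domain protein that BiP uses to hold IRE1 inactive, had a log2 fold change of 0.06 ± 0.16 (SE, adjusted p = 0.817). It ranged from 10.28 to 18.85 CPM in the transfected libraries, on both sides of the untransfected 12.77 to 15.53. DNAJC10, a J-domain reductase, had -0.25 ± 0.19 (SE, adjusted p = 0.373), and turned to 0.28 with length and GC offsets (adjusted p = 0.023). DNAJC3 (p58IPK) ran from 0.33 to 15.44 CPM among transfected libraries, and its fold change was not resolved (log2 -0.03 ± 0.67 SE).

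All 4 disulfide isomerases rose. P4HB (protein disulfide isomerase, ENSG00000185624, chr17:81843159-81860694), which forms and rearranges disulfide bonds, had the smallest p of the 35 genes. It was at 2261, 2275 and 2113 CPM in untransfected libraries and at 3136, 3472 and 3449 with non-cloaked mRNA. With weak cloaking it was at 2585, 3736 and 3965 CPM, with medium at 3309, 3393 and 3510, and with strong at 3532, 3735 and 3680. All 12 transfected libraries exceeded the untransfected ones, weak-cloaked replicate 1 by the least, and the fold change was 1.56 (log2 0.64 ± 0.11 SE, adjusted p = 0.00207, edgeR). PDIA3 (ERp57, ENSG00000167004, chr15:43746392-43773279), the isomerase that works with calnexin and calreticulin, was at 1014, 1030 and 1004 CPM in untransfected libraries. It was at 1201, 1288 and 1232 CPM with non-cloaked mRNA, 1059, 1462 and 1511 with weak, 1410, 1439 and 1475 with medium, and 1333, 1424 and 1462 with strong cloaking. Transfected and untransfected libraries did not overlap in TMM-scaled CPM, although they did as shares of total counts. The log2 fold change was 0.42 ± 0.093 (SE, adjusted p = 0.00795, edgeR). PDIA4 (ERp72, ENSG00000155660, chr7:149003062-149028641) was at 775.3, 769.2 and 791.5 CPM in untransfected libraries. It was at 934.9, 1034 and 1033 CPM with non-cloaked mRNA, 762.3, 1131 and 1226 with weak, 1047, 1041 and 1110 with medium, and 1001, 1121 and 1151 with strong cloaking. Weak-cloaked replicate 1, at 762.3, was below all 3 untransfected libraries and the other 11 were above them, with a log2 fold change of 0.43 ± 0.11 (SE, adjusted p = 0.0168, edgeR). PDIA6, which also dampens IRE1 signalling, had 0.34 ± 0.094 (SE, adjusted p = 0.0207, edgeR), with overlapping groups.

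**Figure D2:**
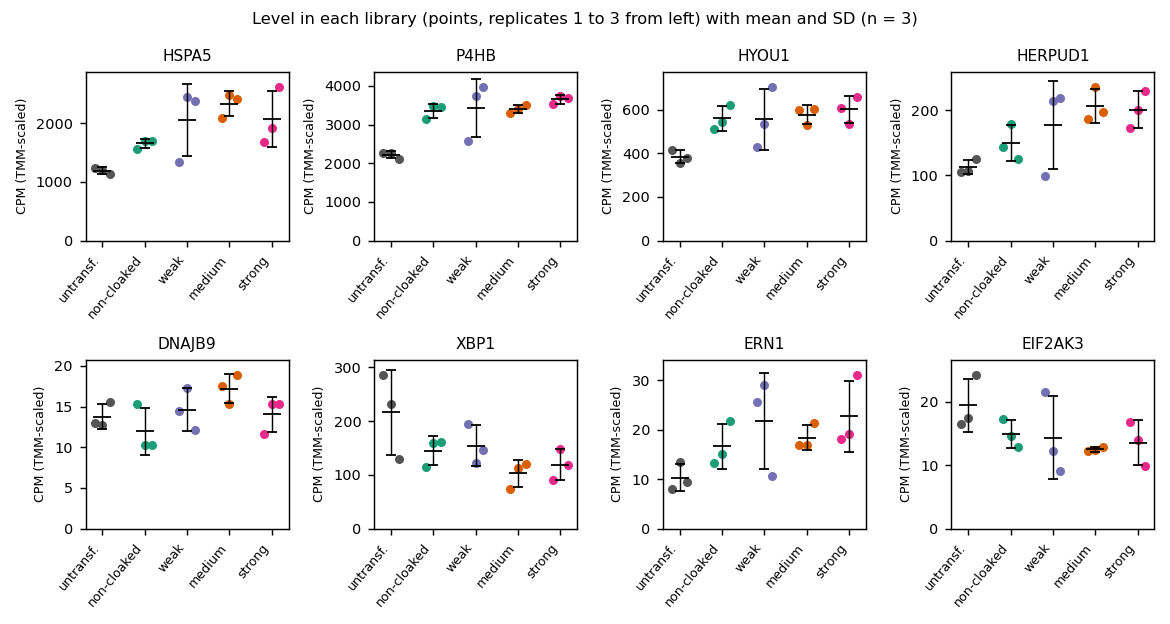
Level of 8 of the genes (vertical axes, TMM-scaled CPM from 0) in the 5 groups (horizontal axes); points are libraries, with the group mean and SD (n = 3) in black. HSPA5, P4HB and HYOU1 sit above the untransfected libraries in all 12 transfected ones, while DNAJB9 overlaps in every group.

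Of the lectin chaperones, which bind glycoproteins through a trimmed sugar chain, the soluble one rose and the membrane-bound one was not called. CALR (calreticulin, ENSG00000179218, chr19:12938578-12944489) was at 2686, 2487 and 2397 CPM in untransfected libraries. It was at 2979, 3401 and 3787 CPM with non-cloaked mRNA, 2582, 3563 and 4033 with weak, 3272, 3519 and 3485 with medium, and 3428, 3532 and 3834 with strong cloaking. Weak-cloaked replicate 1 fell within the untransfected range and the other 11 lay above it, and the log2 fold change was 0.45 ± 0.11 (SE, adjusted p = 0.014, edgeR). CANX (calnexin) had a log2 fold change of 0.12 ± 0.083 (SE, adjusted p = 0.326). With length and GC offsets, with or without the replicate block, CANX was called higher too (lowest adjusted p = 0.005, edgeR). No test compared CALR with CANX.

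Of the 10 degradation factors, 3 rose. OS9 (ENSG00000135506, chr12:57693955-57721557), a lectin that hands misfolded glycoproteins to the degradation complex, was at 346.8, 338.4 and 333.6 CPM in untransfected libraries. It was at 397.1, 471.9 and 465.6 CPM with non-cloaked mRNA, 342.4, 487.4 and 545 with weak, 476.9, 469.4 and 469.6 with medium, and 492.2, 504.6 and 485 with strong cloaking. Only weak-cloaked replicate 1 lay within the untransfected range, and the log2 fold change was 0.46 ± 0.11 (SE, adjusted p = 0.0112, edgeR). HERPUD1 (ENSG00000051108, chr16:56932048-56944863), a membrane protein that organises the degradation complex, was at 106, 106.7 and 125.5 CPM in untransfected libraries. It was at 144.1, 179.2 and 125.4 CPM with non-cloaked mRNA, 99.59, 214.4 and 219.1 with weak, 186.7, 235.4 and 196.9 with medium, and 172.5, 199.9 and 229.3 with strong cloaking. Non-cloaked replicate 3 and weak-cloaked replicate 1 did not exceed the untransfected range, the other 10 libraries did, and the fold change was 1.62 (log2 0.69 ± 0.20 SE, adjusted p = 0.0249, edgeR).

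DERL1 (ENSG00000136986, chr8:123013164-123042423), a subunit of the retrotranslocation channel, was at 62.89, 64.18 and 55.9 CPM in untransfected libraries. It was at 70.91, 74.35 and 74.8 CPM with non-cloaked mRNA, 65.71, 77.89 and 77.07 with weak, 74.78, 77.41 and 73.12 with medium, and 74.97, 78.51 and 74.58 with strong cloaking. All 12 were above the untransfected libraries in TMM-scaled CPM, weak-cloaked replicate 1 by the least, but they overlapped as shares of total counts. The log2 fold change was 0.29 ± 0.078 (SE, adjusted p = 0.0186, edgeR). With total-count scaling the DERL1 value was 0.06 and the call was lost (adjusted p = 0.53). The core ubiquitin ligase of the complex and its adaptor were not called: SYVN1 (HRD1) had a log2 fold change of -0.13 (adjusted p = 0.369) and SEL1L -0.23 (adjusted p = 0.234). Without weak-cloaked replicate 1 SEL1L was called lower (adjusted p = 0.034, edgeR). The mannose-trimming EDEM1 (-0.20), EDEM2 (-0.08) and EDEM3 (-0.47) were not called, nor were DERL2 (0.06) and DERL3 (-0.18), with adjusted p-values from 0.66 to 0.869. DERL3 shares 2923 exon bases with SMARCB1 on the other strand, so its few counts cannot be assigned with certainty.

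Of the 5 sensors and factors, XBP1 fell, ERN1 rose and 3 were not called. XBP1 (ENSG00000100219, chr22:28794555-28800597), whose mRNA IRE1 splices into the form coding for an active transcription factor, was at 285.3, 232.5 and 130.2 CPM in untransfected libraries. It was at 114.3, 159.5 and 160.8 CPM with non-cloaked mRNA, 195.3, 121.5 and 146.3 with weak, 73.65, 113 and 120.8 with medium, and 91.03, 147.7 and 117.4 with strong cloaking. Untransfected replicate 3 lay among the transfected libraries, while untransfected replicates 1 and 2 were above all 12. XBP1 fell to 0.59 of the untransfected level (log2 -0.75 ± 0.22 SE, adjusted p = 0.0254, edgeR). Counts per gene do not separate its spliced from its unspliced form. The call was lost without untransfected replicate 1 (log2 -0.50, adjusted p = 0.18), without untransfected replicate 2 (-0.70, adjusted p = 0.10) and with length and GC offsets (-0.61, adjusted p = 0.077), and the direction held in all 24 alternative fits.

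ERN1 (IRE1, ENSG00000178607, chr17:64039142-64130819), the kinase and nuclease that splices XBP1, was at 8.072, 13.42 and 9.399 CPM in untransfected libraries. It was at 13.19, 15.04 and 21.78 CPM with non-cloaked mRNA, 25.52, 28.95 and 10.69 with weak, 16.91, 16.89 and 21.26 with medium, and 18.02, 19.18 and 31.03 with strong cloaking. Non-cloaked replicate 1 and weak-cloaked replicate 3 lay within the untransfected range and the other 10 above it. The fold change of 1.91 (log2 0.94 ± 0.29 SE, adjusted p = 0.0316, edgeR) was the largest of the 35 genes and had one of the wider intervals, from 0.32 to 1.55. Without untransfected replicate 1 or 3 it was not called (adjusted p = 0.14 and 0.12), nor with total-count scaling (adjusted p = 0.086).

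ATF6 (ENSG00000118217, chr1:161766294-161964070), the membrane-bound factor released by cleavage, was at 54.17, 59.27 and 51.86 CPM in untransfected libraries. It was at 56.34, 44.77 and 48.39 CPM with non-cloaked mRNA, 59.77, 53.76 and 48.5 with weak, 59.12, 58.13 and 59.9 with medium, and 52.08, 55.36 and 53.66 with strong cloaking. The groups overlapped and it was not called (log2 -0.03, adjusted p = 0.855), although it turned to 0.30 with length and GC offsets (adjusted p = 0.044). Its paralog ATF6B (ENSG00000213676, chr6:32115264-32128253) was at 78.79, 81.23 and 62.27 CPM in untransfected libraries. It was at 76.55, 84.72 and 92.99 CPM with non-cloaked mRNA, 57.46, 83.97 and 68.38 with weak, 70.56, 79.75 and 69.83 with medium, and 74.73, 61.57 and 92.51 with strong cloaking. It too overlapped and was not called (log2 0.03, adjusted p = 0.882). EIF2AK3 (PERK, ENSG00000172071, chr2:88556741-88627576), the kinase that phosphorylates eIF2alpha, was at 16.53, 17.45 and 24.14 CPM in untransfected libraries. It was at 17.19, 14.6 and 12.87 CPM with non-cloaked mRNA, 21.56, 12.27 and 9.046 with weak, 12.21, 12.29 and 12.87 with medium, and 16.84, 13.9 and 9.864 with strong cloaking. Weak-cloaked replicate 1 was the highest of the 12, non-cloaked replicate 1 and strong-cloaked replicate 1 also lay within the untransfected range, and the other 9 lay below it. EIF2AK3 was not called with all libraries (log2 -0.49 ± 0.22 SE, adjusted p = 0.114) and was called lower without weak-cloaked replicate 1 (log2 -0.60, adjusted p = 0.014).

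Of the translocation and export genes, SEC61B (ENSG00000106803, chr9:99222064-99230615), the beta subunit of the Sec61 channel, was called higher. It was at 60.75, 57.41 and 53.62 CPM in untransfected libraries and at 69.93, 70.6 and 83.71 with non-cloaked mRNA. With weak cloaking it was at 58.39, 76.47 and 69 CPM, with medium at 65.92, 72.67 and 68.35, and with strong at 69.01, 68.98 and 72.96. Weak-cloaked replicate 1 lay within the untransfected range, the other 11 lay above it, and the log2 fold change was 0.30 ± 0.094 (SE, adjusted p = 0.0345, edgeR). SEC61A1, the pore-forming subunit, had 0.18 (adjusted p = 0.124), SEC24D, a cargo adaptor of export vesicles, 0.26 (adjusted p = 0.25), and SSR1, a subunit of the translocon-associated complex, 0.03 (adjusted p = 0.898). With length and GC offsets SEC61A1, SSR1 and SEC24D were called higher, SEC24D only without the replicate block. SEC61B lost its call with the offsets, with or without the block. SEC61A1 was also called higher without weak-cloaked replicate 1, and SEC24D without untransfected replicate 3.

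HSPA5, HYOU1, PDIA3, P4HB and OS9 were called higher in all 24 alternative fits, which changed the scaling, filter, model or libraries. The other 12 called genes lost the call in at least 1 fit and kept their direction in every one; SDF2L1 was called in 10 of the 24, SEC61B in 13 and HSP90B1 in 18. With total-count scaling HSP90B1, SDF2L1, CRELD2, PDIA4, PDIA6, HERPUD1, DERL1, ERN1 and SEC61B were not called. With length and GC offsets, with or without the replicate block, SDF2L1, XBP1 and SEC61B were not called. Abundant genes were called more often than scarce ones. Of the 12 most abundant genes per kilobase, 8 were called higher and XBP1 lower; of the next 12, 7 were called higher; of the 11 scarcest, ERN1 alone was called. The median 95% interval reached 0.24, 0.29 and 0.46 to either side in these 3 sets, so changes of the scarce genes were measured less precisely.

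The promoters of several genes that rose hold the ER stress element, a sequence known to be read by ATF6, XBP1 and the CCAAT-binding factor NF-Y. RefSeq promoter windows (GRCh38.p14, 250 bases before to 50 after the annotated start) were searched on both strands for ERSE (CCAAT and CCACG with any 9 bases between them), for ERSE-II (ATTGG and CCACG with any 1 base between them) and for the XBP1-bound UPRE (TGACGTGG). A window was found for 31 of the 35 genes. ERSE was present in 7 of the 31 genes (22.6%) and in 25 of all 27305 genes with a window (0.0916%). Its holders were HSPA5, HSP90B1, CRELD2, PDIA6 and CALR, which were called higher, XBP1, which was called lower, and CANX, which was not called. ERSE-II was present in HYOU1, SDF2L1 and HERPUD1, all called higher, against 19 of the 27305 genes (0.0696%). UPRE was present in HYOU1, where it overlaps an ERSE-II, and in DNAJC10, against 0.927% of all genes. Of the 14 genes called higher that had a window, 8 held ERSE or ERSE-II, as did 2 of the 17 other genes. This contrast was not tested, and abundant genes were called more often whatever their promoter. The 35 genes were listed for roles that include this response. Their shares above those of all genes therefore describe the list and are not a result of these counts. The elements of the called genes are shown to let their fixed ends and variable spacers be compared, each 5′ to 3′ in the direction of the element, with the fixed ends in capitals:
HSPA5, chr9:125241391-125241409, minus strand: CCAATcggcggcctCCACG
HSP90B1, chr12:103930216-103930234, plus strand: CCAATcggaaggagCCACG
HSP90B1, chr12:103930321-103930339, minus strand: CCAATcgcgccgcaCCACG
CRELD2, chr22:49918554-49918572, minus strand: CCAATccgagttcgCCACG
PDIA6, chr2:10812853-10812871, minus strand: CCAATgagccgcagCCACG
CALR, chr19:12938384-12938402, minus strand: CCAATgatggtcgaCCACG
XBP1, chr22:28800603-28800621, minus strand: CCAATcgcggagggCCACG
HYOU1, chr11:119057274-119057284, plus strand: ATTGGaCCACG
HYOU1, chr11:119057380-119057390, plus strand: ATTGGaCCACG
SDF2L1, chr22:21642114-21642124, minus strand: ATTGGtCCACG
HERPUD1, chr16:56932025-56932035, plus strand: ATTGGgCCACG
The upstream stretches of the most raised chaperone, the most raised degradation factor and the factor that fell place these elements in context, each 5′ to 3′ on the gene's strand, with the element's fixed ends in capitals:
HSPA5, chr9:125241344-125241593, minus strand: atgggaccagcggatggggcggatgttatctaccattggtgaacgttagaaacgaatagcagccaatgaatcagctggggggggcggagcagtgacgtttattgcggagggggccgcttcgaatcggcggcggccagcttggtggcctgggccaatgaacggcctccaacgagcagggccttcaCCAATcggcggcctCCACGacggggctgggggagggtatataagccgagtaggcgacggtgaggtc
HERPUD1, chr16:56931892-56932047, plus strand: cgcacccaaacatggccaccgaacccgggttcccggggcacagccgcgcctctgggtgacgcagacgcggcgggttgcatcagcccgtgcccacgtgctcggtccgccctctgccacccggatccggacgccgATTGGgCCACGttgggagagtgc
XBP1, chr22:28800598-28800819, minus strand: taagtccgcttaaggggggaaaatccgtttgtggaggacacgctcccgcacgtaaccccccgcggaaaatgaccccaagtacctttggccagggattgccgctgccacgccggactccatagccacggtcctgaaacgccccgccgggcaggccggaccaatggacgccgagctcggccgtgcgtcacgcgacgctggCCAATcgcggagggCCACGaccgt
HSPA5 and XBP1 thus carry the same element type and moved in opposite directions. A match is a description of the letters and not a site of binding, and these windows say nothing of which factor acted.

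Weak-cloaked replicate 1 resembled untransfected cells in these genes as it did across the transcriptome. Relative to the untransfected mean, the 16 genes called higher had a median log2 shift of 0.07 in that library and of 0.34 to 0.65 in the other 11 transfected libraries. In the 3 untransfected libraries the same median lay between -0.05 and 0.05. These medians describe genes called with these same libraries and are not a separate test. In all 12 transfected libraries 6 of the 35 genes (HSPA5, HYOU1, DNAJB11, PDIA3, P4HB and DERL1) were above all untransfected ones, against 5.12% of all tested genes. With weak-cloaked replicate 1 left out the number was 12, against 10% of tested genes, and none of the 35 was below all untransfected libraries, with it (against 5.74% of tested genes) or without it (11.8%). These separations depend on the TMM factors, which were 1.126 to 1.15 in untransfected and 0.9231 to 1.108 in transfected libraries. As shares of total counts, DNAJB11, PDIA3 and DERL1 overlapped the untransfected libraries, while HSPA5, HYOU1 and P4HB stayed above them in all 12.

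**Figure D3:**
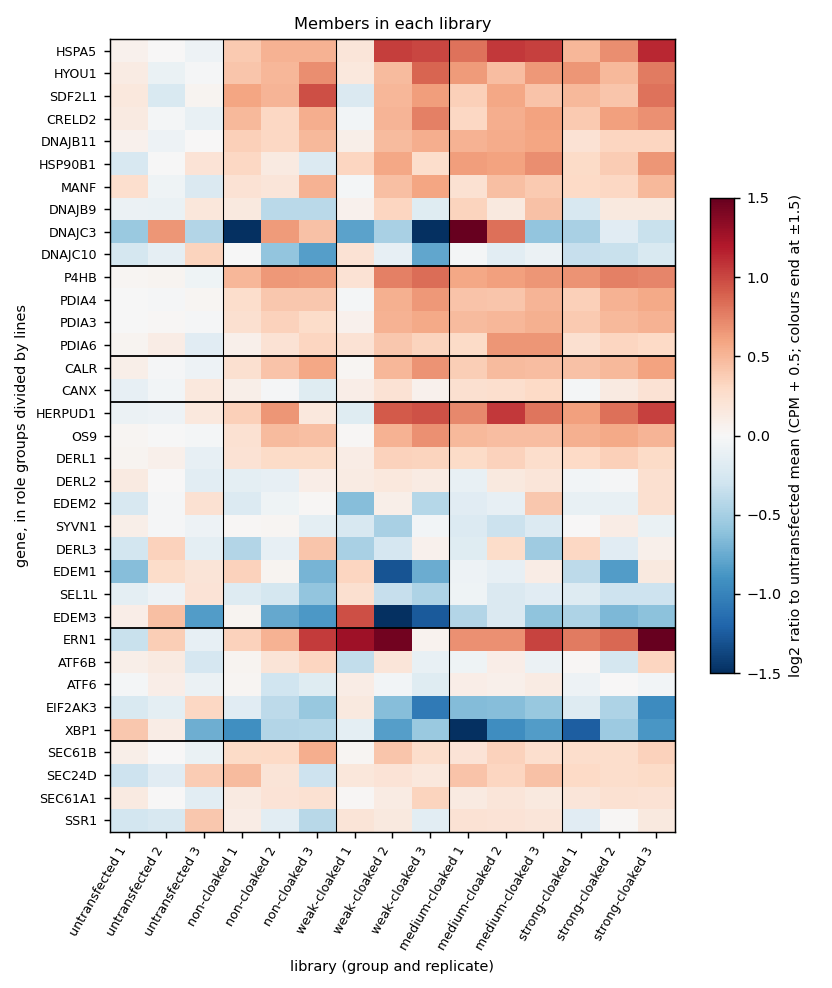
Log2 ratio of each gene (rows, in role groups divided by lines) in each of the 15 libraries (columns) to its untransfected mean, computed on CPM + 0.5, with colours ending at 1.5 to either side. The column of weak-cloaked replicate 1 is paler than its neighbours for chaperones and isomerases, and XBP1 and EIF2AK3 are mostly blue beside a red ERN1.

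Each grade was also set against untransfected cells, and the 4 comparisons share the 3 untransfected libraries. Non-cloaked mRNA called 1 of the 35 genes, P4HB (log2 0.60 ± 0.13 SE, adjusted p = 0.0236, edgeR), against 6.5% of all tested genes (3.84% higher, 2.66% lower). Weak cloaking called HSPA5 (0.79 ± 0.20 SE, adjusted p = 0.0484, or 1.02 ± 0.15 without weak-cloaked replicate 1) and P4HB (0.63 ± 0.13 SE, adjusted p = 0.022, or 0.79 ± 0.068 without it), against 3.29% of tested genes (2.11% higher, 1.19% lower). Medium cloaking called 11, against 13.7% (6.25% higher, 7.49% lower): HSPA5, HSP90B1, HYOU1, DNAJB11, PDIA3, PDIA4, PDIA6, P4HB, HERPUD1 and OS9 higher and XBP1 lower. Strong cloaking also called 11, against 15.1% (7.99% higher, 7.11% lower): HSPA5, HYOU1, CRELD2, PDIA3, PDIA4, P4HB, CALR, HERPUD1, DERL1, OS9 and ERN1, all higher.

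P4HB rose by a like amount in all 4 comparisons, with a log2 fold change of 0.62 ± 0.13 (SE) under medium and 0.72 ± 0.13 under strong cloaking. HSPA5 had log2 fold changes of 0.48 ± 0.20 (SE, adjusted p = 0.144) with non-cloaked mRNA, 0.97 ± 0.20 with medium and 0.80 ± 0.20 with strong cloaking. XBP1 had its lowest value with medium cloaking, at -1.08 ± 0.29 (SE, adjusted p = 0.0295), and ERN1 was called with strong cloaking, at 1.14 ± 0.34 (SE, adjusted p = 0.0407). The median log2 fold change of the 35 genes was 0.19 with non-cloaked mRNA, 0.18 with weak (0.23 without weak-cloaked replicate 1), 0.33 with medium and 0.28 with strong cloaking. The number called depended on weak-cloaked replicate 1: without that library the non-cloaked, weak-cloaked, medium-cloaked and strong-cloaked comparisons called 12, 16, 14 and 14 of the 35 genes. The share of all tested genes called rose too, to 16.5%, 21.3%, 20.1% and 22.3%. Different counts of called genes therefore do not show that the grades differ, which was tested directly.

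That direct test asked whether cloaking changed the ER genes relative to non-cloaked mRNA, and none of the 35 was called. For weak against non-cloaked mRNA 0 genes of the 35 passed, against 0.00544% of all tested genes (edgeR), with 0 at an unadjusted p below 0.05, and DESeq2 also called 0. Without weak-cloaked replicate 1 the count called was still 0, and 8 of the 35 had an unadjusted p below 0.05, against 6.98% of all genes. For medium against non-cloaked mRNA 0 passed, against 0% of tested genes, and 6 of the 35 (17.1%) had an unadjusted p below 0.05 in edgeR and 6 in DESeq2, against 9.5% of all genes. For strong against non-cloaked mRNA 0 passed, against 0%, and 1 gene had an unadjusted p below 0.05 with either tool, against 3.61% of all genes. Without weak-cloaked replicate 1, which feeds the shared estimate of spread, 0 were still called in both (edgeR). The numbers at an unadjusted p below 0.05 were then 9 for medium, against 11.8% of all genes, and 4 for strong, against 5.06%. An F test across non-cloaked, weak, medium and strong groups called 0 of the 35, against 0.00544% of all genes, with 1 at an unadjusted p below 0.05 in edgeR and 2 in DESeq2. The median 95% interval of these comparisons reached 0.37 to either side before adjustment, so for a typical gene differences below about that size were not resolved. Larger differences could also go uncalled after adjustment, as for HSP90B1 at a log2 difference of 0.55 under medium cloaking.

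With all libraries, the 6 genes with a low unadjusted p under medium cloaking were mostly chaperones, and every one was higher than with non-cloaked mRNA. HSP90B1 was at 1507, 1475 and 1579 CPM with medium and 1211, 1070 and 844.1 with non-cloaked mRNA, without overlap. Its log2 difference was 0.55 ± 0.15 (SE, 95% interval 0.22 to 0.87, adjusted p = 0.457, edgeR). HSPA5 was at 2327 ± 213 CPM (SD, n = 3) with medium and 1655 ± 82.6 (SD, n = 3) with non-cloaked mRNA, also without overlap. Its log2 difference was 0.49 ± 0.20 (SE, 95% interval 0.06 to 0.92, adjusted p = 0.497, edgeR). The other 4 differences were 0.53 for DNAJB9, 0.33 for PDIA6, 0.30 for CANX and 0.24 for ATF6, with adjusted p-values from 0.484 to 0.524.

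Under strong cloaking HSP90B1 differed from non-cloaked mRNA by 0.35 ± 0.15 (SE, 95% interval 0.02 to 0.68, adjusted p = 1, edgeR), and HSPA5 by 0.32 ± 0.20 (SE, 95% interval -0.11 to 0.75). P4HB differed by 0.03 (95% interval -0.24 to 0.31) in weak, 0.02 (-0.25 to 0.30) in medium and 0.12 (-0.15 to 0.40) in strong. In weak cloaking without replicate 1, P4HB differed by 0.20 (95% interval 0.05 to 0.35, adjusted p = 0.634, edgeR) and HSPA5 by 0.54 (0.22 to 0.87, adjusted p = 0.604), against 0.31 (-0.12 to 0.74) for HSPA5 with it. XBP1 differed by -0.50 (95% interval -1.12 to 0.13) in medium and -0.29 (-0.91 to 0.34) in strong. In all 3 medium-cloaked libraries 9 of the 35 genes were above all non-cloaked ones, against 10.9% of tested genes, and SYVN1 alone was below, against 11.3%. For strong cloaking 3 were above, against 4.84%, and 0 below, against 5.21%, and for weak cloaking 1 was above, against 3.17%, and 0 below, against 3.71%. With replicates 2 and 3 of the weak-cloaked group alone, 9 were above, against 10.2%, and 3 below, against 11.2%.

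**Figure D4:**
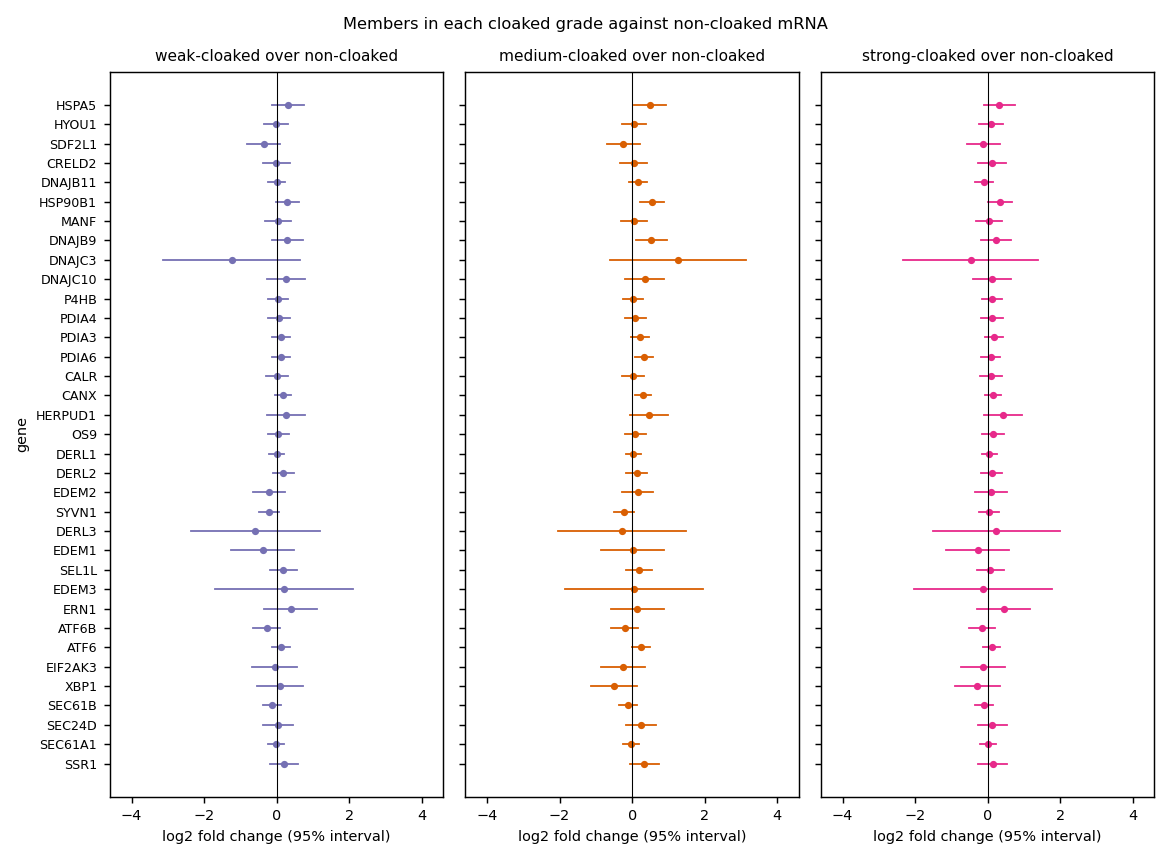
Log2 fold change (horizontal axes, 95% intervals from edgeR) of each of the 35 genes (vertical axis) in weak-, medium- and strong-cloaked over non-cloaked mRNA, in 3 panels. Most intervals cross 0, and in the medium panel those of HSPA5, HSP90B1, DNAJB9, PDIA6, CANX and ATF6 do not, before adjustment over 18380 genes.

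Related lists were counted in the same way for the transfected mean, to be read against the 23.1% of all genes called (10.4% higher, 12.7% lower). Of 78 other genes of ER folding, glycosylation, degradation, translocation, traffic and signalling, 20 were called higher (25.6%) and 2 lower, 28.2% in all, with a median log2 fold change of 0.20 beside -0.05 over all genes. By role, 6 of 16 oxidation and folding genes, 4 of 12 glycosylation genes, 4 of 12 translocation genes, 3 of 11 signalling genes, 2 of 13 traffic genes and 1 of 14 degradation genes were called higher. The smallest p-values belonged to KDELR3, a receptor that returns escaped chaperones to the ER (log2 0.66 ± 0.097 SE, adjusted p = 0.00116, edgeR), SEC61G, the gamma subunit of the Sec61 channel (0.62 ± 0.10 SE, adjusted p = 0.00209), and DAD1, a subunit of the oligosaccharyltransferase (0.44 ± 0.086 SE, adjusted p = 0.00426). The genes called lower were TRAM1, which helps some proteins into the membrane (-0.85 ± 0.18 SE, adjusted p = 0.00691), and UBE2J1, a ubiquitin-conjugating enzyme of ER-associated degradation (-0.48 ± 0.12 SE, adjusted p = 0.0113).

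Of 20 genes of the integrated stress response, which PERK and other eIF2alpha kinases switch on, 5 were called higher (25%) and 1 lower, 30% in all beside 23.1% of all genes, with a median of 0.15. ATF3, a stress-induced transcription factor, had a log2 fold change of 1.68 ± 0.30 (SE, adjusted p = 0.00315, edgeR), DDIT3 (CHOP) 1.12 ± 0.24 (SE, adjusted p = 0.00703) and PPP1R15A (GADD34), which reverses eIF2alpha phosphorylation, 1.81 ± 0.39 (SE, adjusted p = 0.0074). EIF2AK2, the RNA-sensing kinase PKR, was lower (-0.51 ± 0.13 SE, adjusted p = 0.0146), and ATF4, the central factor of this response, was not called (0.14 ± 0.10 SE, adjusted p = 0.345). Of 15 heat shock genes of the cytosol and mitochondria 4 were called higher (26.7%) and 0 lower, beside 23.1% of all genes called, with a median of 0.27. The smallest p-values were those of the mitochondrial co-chaperonin HSPE1 (0.39 ± 0.085 SE, adjusted p = 0.007), the cytosolic J-domain protein DNAJB1 (1.70 ± 0.48 SE, adjusted p = 0.0232) and the cytosolic Hsp90 HSP90AB1 (0.31 ± 0.095 SE, adjusted p = 0.0329, edgeR).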

How the data were processed

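Raw read counts, deposited by the authors as a single matrix with gene symbols in rows, covered 15 strand-specific libraries of poly(A)-selected RNA. The submitters' processing notes name HISAT2, HTSeq, DESeq2 1.46.0, R 4.4.2 and the build GRCh38; the annotation release, strand setting and filter rule are, in the sources used here, not given. Exons of 19 of the 35 genes overlap a gene on the other strand, so their counts could include its reads. Here R 4.3.3 with edgeR 4.0.16 kept 18380 genes (filterByExpr), scaled libraries by TMM and fitted a robust quasi-likelihood model with 1 mean per group to all 15 libraries; CPM are TMM-scaled. A gene was called where its p, adjusted by Benjamini-Hochberg over all tested genes, was below 0.05. Groups and biological replicates came from the sample titles. The common biological coefficient of variation over all tested genes was 0.344. For genes with many counts, replicate spread rather than counting error set the precision. For the scarcest, such as DERL3 with 4 to 46 counts per library, counting error added to it. On simulated data of 18380 genes for the transfected mean, recovery was 1 of 50 genes at a fold of 1.3, 9 of 50 at a fold of 1.5 and 29 of 50 at a fold of 2, with 8 false among 90 calls. The data gave 4242 calls, so the adjusted threshold was stricter in the simulation, and its recovery is not that of the 35 genes. The 35 genes, the other lists and the naming rule (values in all libraries for up to 3 called genes per role and every sensor; up to 3 called genes per direction in other lists) were chosen with earlier results of these data known. ATF4 was named beside the rule. Alternatives included RLE and total-count scaling, DESeq2 1.42.0, other filters, a replicate block, length and GC offsets from GENCODE 29, the compared groups alone and each library left out. In the heat shock list HSPD1, HSPE1 and HSPA9 are mitochondrial.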

Additional observations from a re-analysis of the deposited data

How the results depend on the processing

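No called gene of the 35 changed sign in any of the 24 alternative fits of the transfected mean, and the 3 comparisons with non-cloaked mRNA and the F test called 0 of the 35 in every fit; all counts of the 35 genes not given here stayed within 1.5 times of those reported. Each count is followed by the share of all tested genes called in the same fit. For the transfected mean (17, 23.1%), total-count scaling gave 10 (28.9%) and leaving out 1 library 7 to 21 (11.4% to 31.5%). For non-cloaked mRNA (1, 6.5%), DESeq2 gave 7 (16.1%), a filter of 50 counts in 3 libraries 4 (10.6%), length and GC offsets 3 (5.9%) or, with the replicate block, 4 (7.48%), the compared groups alone 3 (5.84%) and leaving out 1 library 0 to 12 (0.631% to 16.5%). For weak cloaking (2, 3.29%), total-count scaling gave 1 (3.75%), DESeq2 8 (10.9%), no filter 1 (1.66%), length and GC offsets 6 (6.83%) or, with the replicate block, 11 (8.51%), the compared groups alone 0 (0.023%, or 4 genes) and leaving out 1 library 0 to 16 (0.604% to 21.3%). For medium cloaking (11, 13.7%), total-count scaling gave 7 (16.5%), length and GC offsets 18 (18.6%) and leaving out 1 library 3 to 14 (4.16% to 20.1%). For strong cloaking (11, 15.1%), total-count scaling gave 4 (19.3%), so that 11.4% of the 35 genes were called, and leaving out 1 library 1 to 14 (3.86% to 22.3%). Of the other lists for the transfected mean, the 22 called ER genes became 39 with length and GC offsets (37 with the replicate block). Of all genes 4450 (4549 with the block) were then called, against 4242 as reported. With 1 library left out, the ER genes called numbered 7 to 32, the 6 called integrated stress response genes 4 to 9 and the 4 called heat shock genes 1 to 7. These stand beside 11.4% to 31.5% of all genes. The cause was not tested.

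Over all genes, DESeq2 called 2968 against 1195 for non-cloaked mRNA, 2012 against 605 for weak, 3794 against 2524 for medium and 4202 against 2776 for strong cloaking. Against non-cloaked mRNA it called 21 against 1 for weak, 76 against 0 for medium and 15 against 0 for strong cloaking, and 55 against 1 in the F test. For weak cloaking, length and GC offsets called 1255 genes (1564 with the replicate block). With the compared groups alone, 2 against 0 genes were called for strong against non-cloaked mRNA and 3 against 1 in the F test. Leaving out 1 library moved the count of all genes between 2148 and 5938 for the transfected mean.

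Same-numbered replicates correlated between -0.06 and 0.17 in their deviations (median 0.000143), over 0.1 in 2 of 30 pairs. Different-numbered ones lay between -0.137 and 0.113 (median 2.96e-05), over 0.1 in 1 of 60 pairs. With medians this near 0 the numbers were not taken to pair the samples. The replicate block changed the count of the 35 genes from 1 to 2 for non-cloaked mRNA and left it at 17 for the transfected mean. The count over all genes went from 1195 to 1424 for non-cloaked mRNA and from 4242 to 4304 for the transfected mean. Signs turned in genes that were not called. With total-count scaling DNAJB9 was at -0.16, CANX at -0.11, DERL2 at -0.17, ATF6B at -0.20, SEC61A1 at -0.0495 and SSR1 at -0.19 (log2). With length and GC offsets DNAJC3 was at 0.32, DNAJC10 at 0.28, SEL1L at 0.15, EDEM1 at 0.0106, ATF6 at 0.30 and ATF6B at -0.029; with the replicate block as well, DNAJC3 was at 0.42, DNAJC10 at 0.28, SEL1L at 0.16, ATF6 at 0.29 and ATF6B at -0.0293, and with the block alone DNAJC3 was at 0.0367. With 1 library left out DNAJC3 ran from -0.29 to 0.56, DERL3 from -0.47 to 0.44, SSR1 from -0.0879 to 0.285, DERL2 from -0.0219 to 0.131, EDEM2 from -0.186 to 0.0456, ATF6 from -0.0756 to 0.0265 and ATF6B from -0.082 to 0.104.

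Calls of the transfected mean rested on single libraries as follows. SDF2L1, CRELD2, PDIA4, HERPUD1 and SEC61B were lost without any 1 untransfected library, HSP90B1 and XBP1 without untransfected replicate 1 or 2, PDIA6, DERL1 and ERN1 without 1 or 3, CALR without 2 or 3 and DNAJB11 without 2. HSP90B1 was also lost without non-cloaked replicate 2, weak-cloaked replicate 2 or medium-cloaked replicate 3, SDF2L1 without non-cloaked replicate 3, weak-cloaked replicate 2 or 3, any medium-cloaked replicate or strong-cloaked replicate 3, and SEC61B without medium-cloaked replicate 2 or 3 or strong-cloaked replicate 3. With only 3 untransfected libraries, genes that were not called may still have changed. For the transfected mean the median interval of the listed genes reached 0.29 to either side on the log2 scale. Changes below about that size could therefore go uncalled in a typical gene. The self-test, which recovered 1 of 50 changes of 1.3-fold, had a stricter adjusted threshold and does not give the recovery of these genes.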
